A study of Mus musculus with 132 samples.

Results

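Messenger RNA of 7 genes for secreted or cell-surface proteins of the periosteum and of loaded bone matrix, Postn, Tnn, Tnc, Thbs2, Lrrc15, Cthrc1 and Ostn, was followed in cortical bone of the mouse tibia. The 7 genes were taken by symbol from the 23412 gene rows of the table, and all 7 passed the filter on low values, which 13050 genes passed. They were chosen on measured values of these data, namely the differences between loaded and control limbs at 5 times in 3 segments and the control levels by segment. Those values are therefore given here as a description, with no test.

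The limbs came from 22 female C57Bl/6J mice aged 10 weeks, with no transgene or deletion named in the labels. In each mouse the left tibia was compressed cyclically in vivo, with a peak of 9 N at 4 Hz and 1200 cycles on each day of loading, and the contralateral tibia was the control. Cancellous bone was removed and the cortex was cut into the metaphyseal shell, the proximal diaphysis and the mid-diaphysis, so that each mouse gave 6 libraries. A single bout was followed by collection at 1 h in 5 mice, at 3 h in 4 mice and at 24 h in 4 mice. In the group called 7d, 4 mice were loaded every day for 7 days and collected 24 h after the last bout. In the group called 5d, 5 mice were loaded for 5 days and collected on day 8 counted from the first session. All control limbs thus belonged to mice whose other limb had been loaded, and the replicates of a group were separate mice.

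The periosteum is the fibrous and cellular sheath of a bone, and its inner layer supplies osteoblasts to the outer cortical surface, where much of the new bone forms after loading. Matricellular proteins such as periostin, the tenascins and the thrombospondins are laid down in this matrix, where they bind collagens, growth factors and integrins rather than serve as its scaffold. In mice, periostin is needed for the full periosteal bone formation response to loading. In bulk tissue such as this, fewer cells of a type and less RNA per cell cannot be told apart.

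The members lie on 6 chromosomes of the mouse build GRCm38 (GENCODE M21). Postn, which encodes periostin, is at chr3:54361109-54391037 on the plus strand. Tnn, which encodes tenascin-W, is at chr1:160085029-160153580, Tnc, which encodes tenascin-C, at chr4:63959785-64047015, and Thbs2, which encodes thrombospondin-2, at chr17:14665500-14694235, all on the minus strand. Lrrc15, a leucine-rich repeat membrane protein of activated stromal fibroblasts, is at chr16:30269302-30283256 on the minus strand. Cthrc1, a secreted glycoprotein of osteoblasts and of fibroblasts in repairing tissue, is at chr15:39076932-39087121 on the plus strand. Ostn, which encodes the secreted peptide osteocrin made by periosteal osteoblasts and skeletal muscle, is at chr16:27307489-27351212 on the plus strand, 2.92 megabases from Lrrc15. Tnc overlaps the antisense gene 8030451A03Rik and Ostn overlaps Gm32312 and Gm15970, and whether counting used the strand is not given in the sources used here, so reads of these partners cannot be told apart.

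RefSeq promoter windows of build GRCm38.p6, from 250 bases before to 50 bases after the annotated start, were found for 5 of the 7 genes (Postn, Tnn, Thbs2, Lrrc15 and Tnc), and not for Cthrc1 and Ostn. Both strands were searched for the letters TGANTCA of the AP-1 site, the letters GGAATG of the TEAD site, the letters CAGAC of the SMAD element, the letters TATAAA of the TATA box and the letters CANNTG of the E-box, and capitals mark the matches. Of all 32851 promoter windows, 7.81% held the AP-1 site, 14.7% the TEAD site, 49.6% the SMAD element, 13.6% the TATA box and 72.3% the E-box. All 5 windows found are shown, since the mean of each of these genes was higher in the loaded than in the control metaphyseal shell at 5d. They are chr3:54360857-54361156 (plus), chr1:160153526-160153825 (minus), chr17:14694213-14694512 (minus), chr16:30283205-30283504 (minus) and chr4:64046966-64047265 (minus).
Postn: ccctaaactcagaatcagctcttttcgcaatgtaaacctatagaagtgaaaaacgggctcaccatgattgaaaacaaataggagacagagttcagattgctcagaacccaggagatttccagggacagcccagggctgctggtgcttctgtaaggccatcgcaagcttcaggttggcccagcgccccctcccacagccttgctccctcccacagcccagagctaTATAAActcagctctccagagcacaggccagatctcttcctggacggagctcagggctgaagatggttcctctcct
Tnn: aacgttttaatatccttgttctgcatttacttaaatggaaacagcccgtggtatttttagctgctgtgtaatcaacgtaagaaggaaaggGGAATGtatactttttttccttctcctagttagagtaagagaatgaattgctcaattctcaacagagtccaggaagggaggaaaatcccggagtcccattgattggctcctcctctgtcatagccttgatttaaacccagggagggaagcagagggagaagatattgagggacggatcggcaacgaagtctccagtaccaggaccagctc
Thbs2: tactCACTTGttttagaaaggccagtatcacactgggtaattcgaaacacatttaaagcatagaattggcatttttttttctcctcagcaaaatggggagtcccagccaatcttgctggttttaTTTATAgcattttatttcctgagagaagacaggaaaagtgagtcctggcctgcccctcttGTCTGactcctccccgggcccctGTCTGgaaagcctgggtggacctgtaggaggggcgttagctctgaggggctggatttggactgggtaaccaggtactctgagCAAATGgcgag
Lrrc15: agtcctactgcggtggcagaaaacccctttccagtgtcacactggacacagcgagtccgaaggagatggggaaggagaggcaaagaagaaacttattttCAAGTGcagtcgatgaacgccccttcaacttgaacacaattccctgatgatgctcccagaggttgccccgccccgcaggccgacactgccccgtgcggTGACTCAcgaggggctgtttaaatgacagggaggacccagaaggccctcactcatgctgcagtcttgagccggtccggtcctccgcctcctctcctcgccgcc
Tnc: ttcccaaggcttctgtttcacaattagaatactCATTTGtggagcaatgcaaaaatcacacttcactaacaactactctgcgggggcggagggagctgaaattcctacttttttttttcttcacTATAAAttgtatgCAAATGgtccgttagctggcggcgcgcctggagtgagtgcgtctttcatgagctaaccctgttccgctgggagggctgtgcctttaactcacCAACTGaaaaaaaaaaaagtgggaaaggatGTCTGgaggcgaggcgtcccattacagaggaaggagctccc

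The 5 windows held different matches. Postn had only a TATA box, starting 26 bases before the annotated start, and Tnn only a TEAD site, 160 bases before it. Thbs2 had 2 SMAD elements, at 66 and 43 bases before the start, a TATA box at 126 bases before it and 2 E-boxes. Lrrc15 had an AP-1 site at 53 bases and an E-box at 151 bases before the start. Tnc had a TATA box at 126 bases before the start, 3 E-boxes and 1 SMAD element after the start. A match is a description of the letters in the window and not evidence of a binding site.

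Levels below are the deposited normalized counts per gene and library. Differences are log2 differences of the value plus 1 within a mouse, which understate changes of low genes, and they are given ± SE. Between loaded and control limbs the SE is that of the mean over mice. Between segments, in control limbs too, it is the SE of the limma fit, which draws on the variance of all genes. The libraries held 290325 to 5410458 reads assigned to genes, and 3 reads corresponded to a normalized count of 0.706 to 17.4. Markers of bone were present throughout, with a summed level of 8 osteoblast markers of 5188 to 877779. In 4 mid-diaphysis libraries, the loaded one of mouse 2 and the control one of mouse 3 at 1 h and the loaded ones of mice 4 and 5 at 5d, the mesothelial marker Msln ranged from 340 to 503, and no other library exceeded 48.6. In these 4 libraries Ostn was at 0, as was its median in the other mid-diaphysis libraries. Tnn was at 0 to 2.78 against a median of 49.9 in the other mid-diaphysis libraries, and Tnc was at 180 to 204 against a median of 1272. Another 3 control libraries had few genes detected or gave Col1a1 more than 20% of the values, 1 proximal library at 3 h (mouse 3), 1 proximal library at 7d (mouse 2) and 1 mid-diaphysis library at 7d (mouse 4). Postn and Tnc were above 0 in every library, while Thbs2 and Cthrc1 were at 0 in 2 libraries each, Tnn in 5, Lrrc15 in 8 and Ostn in 29.

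In control tibiae all 7 members had their highest mean level in the proximal diaphysis. The levels of each gene ranged widely between mice within every segment, and the ranges of the segments overlapped for all 7. Over the 22 mice, Postn averaged 605 ± 334 (SD) in the proximal diaphysis, with a lowest value of 108.2, a median of 545 and a highest of 1394. It averaged 260 ± 127 in the metaphyseal shell (95.6, 237 and 609) and 298 ± 409 in the mid-diaphysis (28.1, 214 and 2041). Postn was lower in the shell than in the proximal diaphysis in 21 of 22 mice, by a mean log2 difference of -1.13 ± 0.20.

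The other matricellular members kept the proximal diaphysis highest with different depths below it. Tnn averaged 223 ± 139 in the proximal diaphysis, 142 ± 90.7 in the metaphyseal shell and 100.3 ± 115.9 in the mid-diaphysis, and it was higher in the proximal than in the mid-diaphysis in 19 of 22 mice. Thbs2 averaged 138 ± 83.0, 80.3 ± 26.8 and 44.1 ± 50.7 in the same order, with the proximal level above the mid-diaphysis level in 20 of 22 mice. Tnc varied least between segments, at 1636 ± 631, 1480 ± 461 and 1481 ± 838, and its differences between segments lay between -0.12 and 0.38 on the log2 scale.

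Lrrc15 had the steepest control gradient in number of mice. It was at 100.2 ± 69.8 in the proximal diaphysis (lowest 13.8, median 93.3, highest 319), 44.1 ± 29.3 in the shell (6.87, 33.2 and 122.5) and 18.7 ± 19.1 in the mid-diaphysis (0.897, 14.4 and 76.1). It was higher in the proximal than in the mid-diaphysis in 22 of 22 mice, by 2.71 ± 0.42. Ostn averaged 37.8 ± 30.1 in the proximal diaphysis, 7.05 ± 6.80 in the metaphyseal shell and 12.9 ± 20.7 in the mid-diaphysis, where 11 of 22 control libraries were at 0. Cthrc1 averaged 112.96 ± 83.9, 60.3 ± 48.8 and 83.9 ± 78.1.

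**Figure D1:**
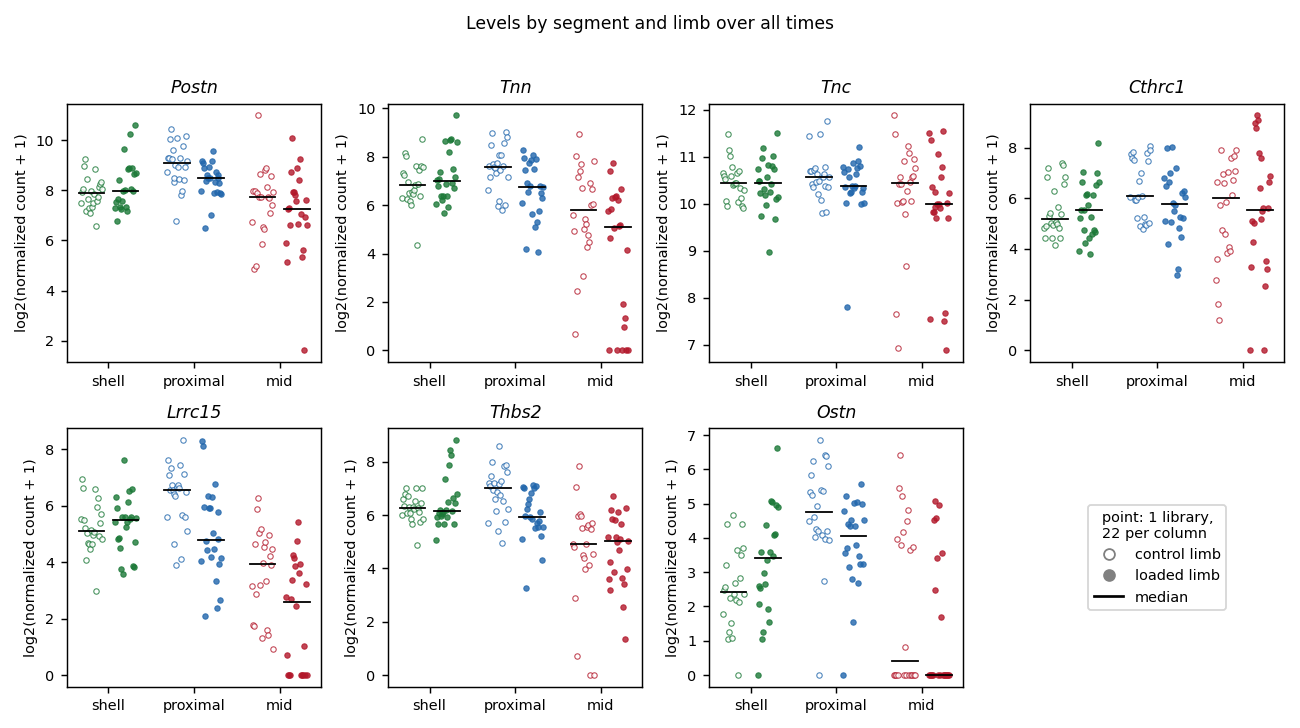
Normalized counts of the 7 genes in control and loaded limbs by segment, 1 point per library of 22 mice, on a log2 scale after 1 was added, with a bar at the median of each group. The control medians lie highest in the proximal diaphysis for all 7 genes, and in the loaded mid-diaphysis 5 libraries of Tnn, 8 of Lrrc15 and 14 of Ostn lie at 0.

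In loaded tibiae the lowest mean level of 6 of the 7 members was in the mid-diaphysis, and Cthrc1 was the exception. Levels of loaded limbs by segment were not used to choose the genes. Each loaded level is nevertheless the control level plus the difference that chose the genes, in the same mice, so the tests that follow are not independent support. Between the metaphyseal shell and the mid-diaphysis 4 of 7 members were higher by limma at an adjusted p under 0.05, against 8.11% of all genes called in this comparison and 7.53% called higher. The ribosomal RNA gene Rn45s took 0.214% to 27.4% of the values in the loaded shell (median 3.02%) and 0.290% to 60.8% in the loaded mid-diaphysis (median 15.02%). Its share was higher in the mid-diaphysis in 21 of 22 mice, and its part in these results was not tested.

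Tnn averaged 203 ± 188 in the loaded shell (lowest 50.0, median 125.3, highest 836) and 47.7 ± 57.1 in the loaded mid-diaphysis (0, 32.9 and 211). The shell was higher in 19 of 22 mice, by 3.28 ± 0.63 (limma, adjusted p = 0.00203). Lrrc15 averaged 49.8 ± 40.3 in the shell (10.9, 43.8 and 194) and 8.03 ± 10.6 in the mid-diaphysis (0, 4.97 and 41.6), where 8 of 22 libraries were at 0. It was higher in the shell in 21 of 22 mice, by 3.22 ± 0.44 (limma, adjusted p = 7.45e-05). For both genes the ranges of the segments overlapped while nearly every mouse had the shell higher.

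Thbs2 averaged 120.3 ± 110.8 in the loaded shell (32.4, 70.96 and 449) and 34.8 ± 27.3 in the mid-diaphysis (1.55, 31.5 and 103.3). The difference was 1.86 ± 0.36, higher in 17 of 22 mice (limma, adjusted p = 0.00214). Ostn averaged 15.8 ± 20.98 and 6.17 ± 10.7 in these segments, higher in the shell in 17 mice and lower in 4, by 1.89 ± 0.57 (limma, adjusted p = 0.0386). The call for Ostn was lost without the 4 libraries high in Msln (adjusted p = 0.126), which left 3 of 7 members called. It was also lost by edgeR and in 15 of 22 limma fits that left out 1 mouse. Postn, at 393 ± 369 in the loaded shell and 232 ± 248.5 in the mid-diaphysis, differed by 1.12 ± 0.41 (limma, adjusted p = 0.0893). Tnc differed by 0.60 ± 0.30 (limma, adjusted p = 0.207) and Cthrc1 by 0.12 ± 0.54 (limma, adjusted p = 0.914).

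Between the proximal and the mid-diaphysis of loaded tibiae 3 of 7 members were called, all higher in the proximal diaphysis, against 0.935% of all genes. In control limbs, whose levels helped choose the genes, the same difference was already 2.71 for Lrrc15, 1.83 for Tnn and 2.64 for Ostn. These calls are therefore not independent support. Lrrc15 was higher by 2.89 ± 0.45 in 20 of 22 mice (limma, adjusted p = 0.00250), with 59.1 ± 81.2 in the loaded proximal diaphysis. Tnn, at 128.8 ± 88.4 there, was higher by 2.66 ± 0.53 in 19 mice (limma, adjusted p = 0.0117). Ostn, at 17.8 ± 12.3, was higher by 2.44 ± 0.43 in 17 mice and lower in 4 (limma, adjusted p = 0.00723). Without the 4 libraries high in Msln only Lrrc15 kept its call, with Tnn at adjusted p = 0.0811 and Ostn at 0.0586. Between shell and proximal diaphysis 0 of 7 members were called by limma in loaded limbs, with adjusted p from 0.291 to 0.887, against 0.0613% of all genes.

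Postn averaged 393 ± 369 in the loaded shell (median 252) and 368 ± 157 in the loaded proximal diaphysis (median 361), and within mice the shell was higher in 11 of 22, by -0.16 ± 0.28. The median over the 7 members of the difference between shell and proximal diaphysis was 0.05 in loaded limbs, against 0.02 over all genes. The medians for the shell against the mid-diaphysis and for the proximal against the mid-diaphysis were 1.86 and 1.30 in loaded limbs, against 0.19 and 0.16 over all genes.

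After repeated bouts the mean differences between loaded and control limbs did not point the same way in the 3 segments. At 5d all 7 members had a higher mean in the loaded than in the control metaphyseal shell, with a median difference of 1.26, and 50.1% of all genes were higher (with upper-quartile scaling 6 of 7 were, and Cthrc1 was just below 0). In the same mice 1 of 7, Tnc, was higher in the proximal diaphysis, with a median of -0.87, and 1 of 7, Thbs2 (0.04), in the mid-diaphysis, with a median of -1.55. Of all genes, 54.2% and 49.3% were higher in these segments. Without the 4 libraries high in Msln, Thbs2 was at -0.55 in the mid-diaphysis and Tnc, at 0.10 in place of -1.01, was the member above 0. At 7d 6 of 7, all but Lrrc15, were higher in the shell, 0 of 7 in the proximal diaphysis and 1 of 7 in the mid-diaphysis, with medians of 0.48, -1.17 and -1.76. In the same order 49.1%, 63.1% and 51.2% of all genes were higher. Over all 15 combinations of time and segment, 37 mean differences of the members were above 0. These values chose the genes, and the groups share mice, so nothing is read from the counts.

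Postn in the shell at 5d was at 233, 458, 95.6, 190.0 and 211 in the control limbs of mice 1 to 5 and at 464, 469, 1224, 263 and 470.5 in their loaded limbs. The loaded limb was higher in 5 of 5 mice, by 1.26 ± 0.63, and the groups overlapped. The difference in means depended in part on mouse 3, whose control was the lowest and whose loaded value was the highest, and without it the difference was 0.66. At 7d the shell values were 279.7, 303, 323 and 264 in control and 248, 407, 1585 and 413 in loaded limbs, a difference of 0.80 ± 0.53 that was 0.30 without mouse 3 of that group.

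At 5d in the proximal segment Postn was at 346, 634, 227, 249.96 and 877 in control and at 239, 322, 429.9, 243 and 362 in loaded limbs, lower in 4 of 5 mice, by -0.38 ± 0.39, which was -0.71 without mouse 3 and -0.16 without mouse 5. At 7d it was lower there in 3 of 4 mice, with 344, 493, 1158 and 577 in control and 390.1, 314, 236 and 228 in loaded limbs (-1.02 ± 0.52, or -0.60 without mouse 3). In the mid-diaphysis at 7d the control values were 135, 377, 169.6 and 244 and the loaded values 2.07, 120.8, 193 and 96.1. The library at 2.07 was that of mouse 1, in which Col1a1 took 0.490% of the values, against 12.7% in its control library. Without that mouse the difference of -2.06 ± 1.203 was -0.93.

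Tnn was also higher by mean in the loaded shell and lower in both loaded diaphyseal segments at 5d and 7d. In the shell at 5d it was at 112.2, 197, 19.4, 114.7 and 173 in control and at 294, 408, 425, 118.4 and 180.1 in loaded limbs. The loaded limb was higher in 5 of 5 mice, by 1.38 ± 0.80, of which mice 4 and 5 had the narrowest gaps, and without mouse 3 the difference was 0.63. In the proximal diaphysis of these mice it was at 174, 268, 55.2, 193 and 376 in control and at 33.1, 240.0, 38.1, 15.9 and 52.9 in loaded limbs. It was lower in 5 of 5 mice there, by -1.87 ± 0.66.

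In the mid-diaphysis at 7d Tnn was at 62.8, 101.2, 64.3 and 225 in control and at 1.55, 0, 16.8 and 0 in loaded limbs. The groups did not overlap, as for 0.858% of all genes with every loaded value below every control value. The difference was -5.25 ± 1.30, a value that depends on the pseudocount because 2 libraries were at 0. It was -4.40 without mouse 4, whose control library had few genes detected or high Col1a1. Without mouse 1, whose loaded library was low in Col1a1, it was -5.46. Control and loaded values of Tnn at 24 h in the mid-diaphysis were 141, 494, 171 and 204 and then 77.2, 211, 31.9 and 80.0, lower in 4 of 4 mice by -1.45 ± 0.33.

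Thbs2 shared the 5d shell pattern in part. Its control values there were 91.03, 127.9, 28.1, 76.2 and 68.0 and its loaded values 232, 346, 301, 70.6 and 98.5. The loaded limb was higher in 4 of 5 mice, by 1.31 ± 0.59, with mice 1 to 3 above every control value and without mouse 3 at 0.80. At 1 h the shell values were 63.9, 95.3, 80.7, 108.5 and 128.8 in control and 32.4, 59.2, 50.1, 67.0 and 71.4 in loaded limbs, lower in 5 of 5 mice by -0.77 ± 0.06. This was the narrowest spread between mice among the Thbs2 differences, while the mid-diaphysis difference at 7d, 0.23 ± 1.89, had mice in both directions.

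Tnc had the narrowest range of mean differences, and at 5d it was the member with a higher mean in the loaded proximal diaphysis. There it was at 893, 1522, 1596, 1754 and 1325 in control and at 1586, 1736, 1923, 2350.1 and 1777 in loaded limbs, higher in 5 of 5 mice by 0.43 ± 0.11 with overlapping groups. In the mid-diaphysis at 7d it was at 1518, 1532, 1989 and 1727 in control and at 117.2, 1031, 829 and 1204 in loaded limbs. The groups did not overlap, again against 0.858% of all genes, and the difference of -1.51 ± 0.74 was -0.78 without mouse 1. At 24 h the mid-diaphysis values were 1361, 1513, 1374 and 1054 in control and 904, 1211, 967 and 827 in loaded limbs, lower in 4 of 4 mice by -0.44 ± 0.06.

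**Figure D2:**
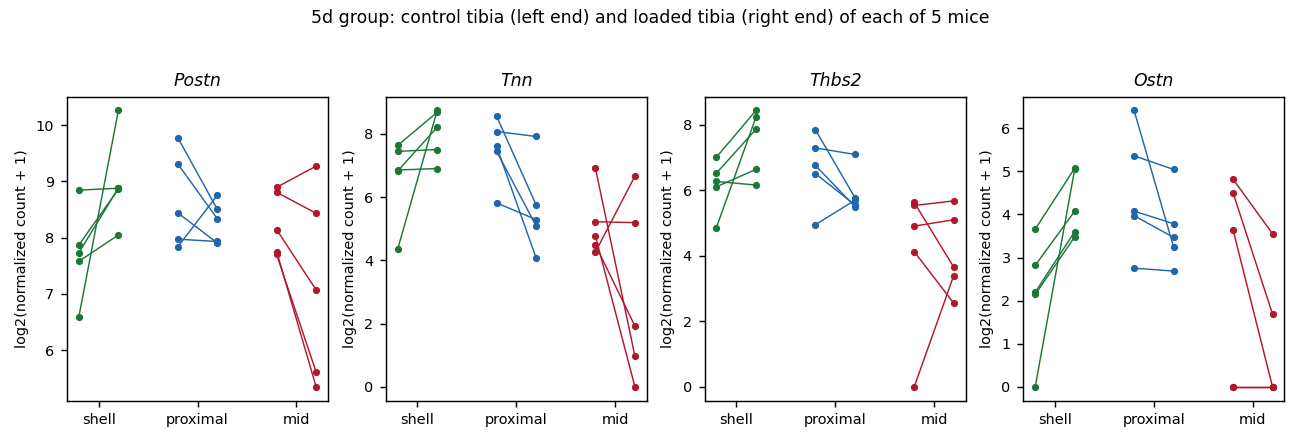
Normalized counts of Postn, Tnn, Thbs2 and Ostn in the control (left end of a line) and loaded (right end) limb of each of the 5 mice of the 5d group, by segment, on a log2 scale after 1 was added. The lines of Postn, Tnn and Ostn go up in all 5 mice in the metaphyseal shell, and those of Tnn and Ostn go down in all 5 in the proximal diaphysis.

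Lrrc15 was lower by mean in the loaded diaphysis after repeated bouts, and also after a single bout except in the mid-diaphysis at 3 h (0.37). At 1 h the difference was -2.14 ± 0.75 in the mid-diaphysis, lower in 5 of 5 mice from a control mean of 8.63. It was -1.14 ± 1.12 in the proximal diaphysis then. At 24 h these differences were -1.47 ± 0.97 and -0.73 ± 0.81. In the proximal diaphysis at 7d it was at 138, 47.3, 89.5 and 33.1 in control and at 27.2, 14.3, 5.36 and 16.9 in loaded limbs, lower in 4 of 4 mice by -2.18 ± 0.62. The groups did not overlap, as for 1.76% of all genes with the loaded values below. At 5d the proximal values were 97.8, 173, 16.1, 50.4 and 319 in control and 21.1, 107.1, 9.07, 4.19 and 53.9 in loaded limbs, lower in 5 of 5 mice by -1.89 ± 0.51. At 3 h in the shell the order was the other way, with 21.3, 34.2, 23.8 and 30.4 in control and 194, 46.99, 37.3 and 41.6 in loaded limbs. Those groups did not overlap, as for 1.12% of all genes with the loaded values above, and the difference of 1.16 ± 0.66 was 0.51 without mouse 1.

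Ostn was higher in the loaded shell after repeated bouts, from low levels. At 5d it was at 3.58, 11.6, 0, 3.42 and 6.06 in control and at 11.2, 32.7, 32.3, 10.2 and 15.9 in loaded limbs. The loaded limb was higher in 5 of 5 mice, by 2.10 ± 0.74, or by 1.36 without mouse 3, whose control was at 0. At 7d it was at 10.4, 20.1, 11.97 and 4.14 in control and at 16.4, 29.9, 96.8 and 28.9 in loaded limbs, higher in 4 of 4 mice by 1.65 ± 0.62. In the proximal diaphysis at 5d it was lower in 5 of 5 mice, with 15.9, 40.1, 5.75, 14.7 and 84.2 in control and 12.8, 32.0, 5.44, 10.1 and 8.46 in loaded limbs. Mouse 5 held most of that mean difference of -0.87 ± 0.58, which was -0.30 without it. In the mid-diaphysis at 7d Ostn was at 0 in 3 of 4 control and in 4 of 4 loaded libraries, so the mean difference of -0.94 rested on the control library of mouse 2, at 12.4.

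Cthrc1 had its highest mean difference in the mid-diaphysis after a single bout, where no other member had its own except Tnc. At 24 h in the mid-diaphysis it was at 52.8, 238, 25.9 and 122.5 in control and at 498, 437, 616 and 539 in loaded limbs. The groups did not overlap, as for 2.01% of all genes with the loaded values above, and the difference was 2.68 ± 0.78. In the same libraries the 9 chondrocyte markers were higher in 4 of 4 mice, by 0.85 ± 0.18, and the 7 osteoclast markers were lower in 4 of 4, by -0.88 ± 0.23. The 14 skeletal muscle markers differed by -2.68 ± 2.06, and the part of these cells in the difference was not tested. At 3 h in that segment it was already higher in 4 of 4 mice, by 1.52 ± 0.14, with 95.9, 23.3, 57.3 and 13.2 in control and 219.9, 84.1, 189 and 35.4 in loaded limbs.

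After repeated bouts Cthrc1 was lower in the loaded diaphysis. In the mid-diaphysis at 7d it was at 103.97, 202, 135 and 238 in control and at 8.26, 47.5, 98.6 and 118.03 in loaded limbs, lower in 4 of 4 mice by -1.76 ± 0.67, or by -1.17 without mouse 1. The proximal diaphysis of those mice gave values of 178, 31.2, 267 and 239.8 in control and 73.2, 36.4, 77.4 and 66.0 in loaded limbs (-1.17 ± 0.48, lower in 3 of 4). The shell showed mean differences between -0.08 and 0.12 at the 5 times. At 24 h the other 6 members had mean differences of -1.47 to -0.13 in the mid-diaphysis, in the mice in which Cthrc1 was higher.

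**Figure D3:**
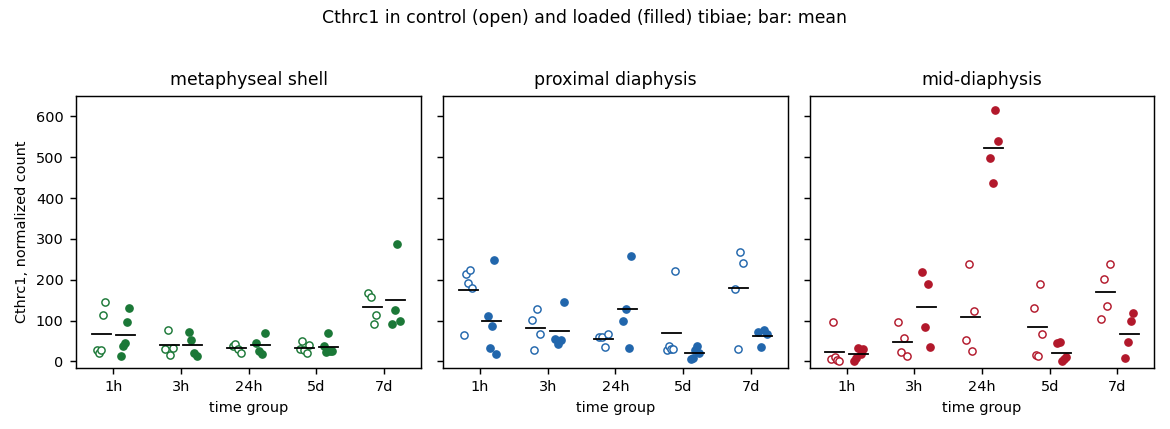
Normalized counts of Cthrc1 by time group in the control (open) and loaded (filled) limbs, with 1 panel per segment, 1 point per library and a bar at the group mean. In the mid-diaphysis the 4 loaded values at 24 h lie between 437 and 616, above every other library of the plot.

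Control limbs also differed by time for Cthrc1. The mean of the 3 control segments was 88.7 ± 34.5 at 1 h, 56.0 ± 18.5 at 3 h, 66.1 ± 35.2 at 24 h, 62.2 ± 34.8 at 5d and 160.6 ± 28.3 at 7d (SD over mice). The 7d mice lay between 130.5 and 197, and the highest mouse at any other time was at 113.4. Levels of control limbs by time were not themselves used to choose the genes, but the differences that chose them contain the same control libraries. Cthrc1 was the only member called across the 5 times (limma F test, adjusted p = 0.00248, mice per time 4 or 5). The other 6 had adjusted p from 0.169 to 0.924. Of all genes 21.4% were called, a share that 1 of 7 does not exceed, so the call is not a trait of the members. Times were different mice, so time and any difference in handling between the groups cannot be told apart, and the lower loaded values at 7d were set against these higher controls.

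At 1 h after a single bout all 7 members had a lower mean in the loaded proximal diaphysis, with differences of -0.80 to -1.98, while 49.3% of all genes had a higher mean there. Marker lists of other cells went both ways in the same limbs. Osteoblast markers were lower by -0.74 ± 0.50 and osteoclast markers by -0.94 ± 0.42 in 5 of 5 mice. Tendon (-1.05 ± 0.82), skeletal muscle (-1.21 ± 1.28), osteocyte (-0.50 ± 0.48) and chondrocyte (-0.16 ± 0.19) markers were lower by mean. Mesothelial markers were higher in 5 of 5 mice, by 0.51 ± 0.10, at very low levels. Over all times their summed level in the proximal diaphysis had a median of 1.92 in control and 5.31 in loaded limbs. At 1 h 4 of the 7 markers had a higher mean there. Neutrophil (0.34 ± 0.35), erythroid (0.29 ± 0.55) and endothelial (0.08 ± 0.06) markers were higher by mean. The part of these cells was not tested. Postn was at 426, 620.4, 629, 1059.9 and 1394 in control and at 253, 577, 553, 474 and 90.6 in loaded limbs, lower in 5 of 5 mice by -1.22 ± 0.70. The loaded library of mouse 5 was the lowest for Postn, and Col1a1 took 1.03% of its values against 9.94% in its control. Without mouse 5 the differences were -0.55 for Postn, -0.04 for Tnn, -0.36 for Tnc, -0.12 for Lrrc15, -0.72 for Cthrc1, -0.58 for Thbs2 and -1.83 for Ostn. In the shell at 1 h Postn was at 178, 242, 262, 503 and 609 in control and at 158, 186, 109.1, 200.3 and 341 in loaded limbs, lower in 5 of 5 mice by -0.79 ± 0.23.

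**Figure D4:**
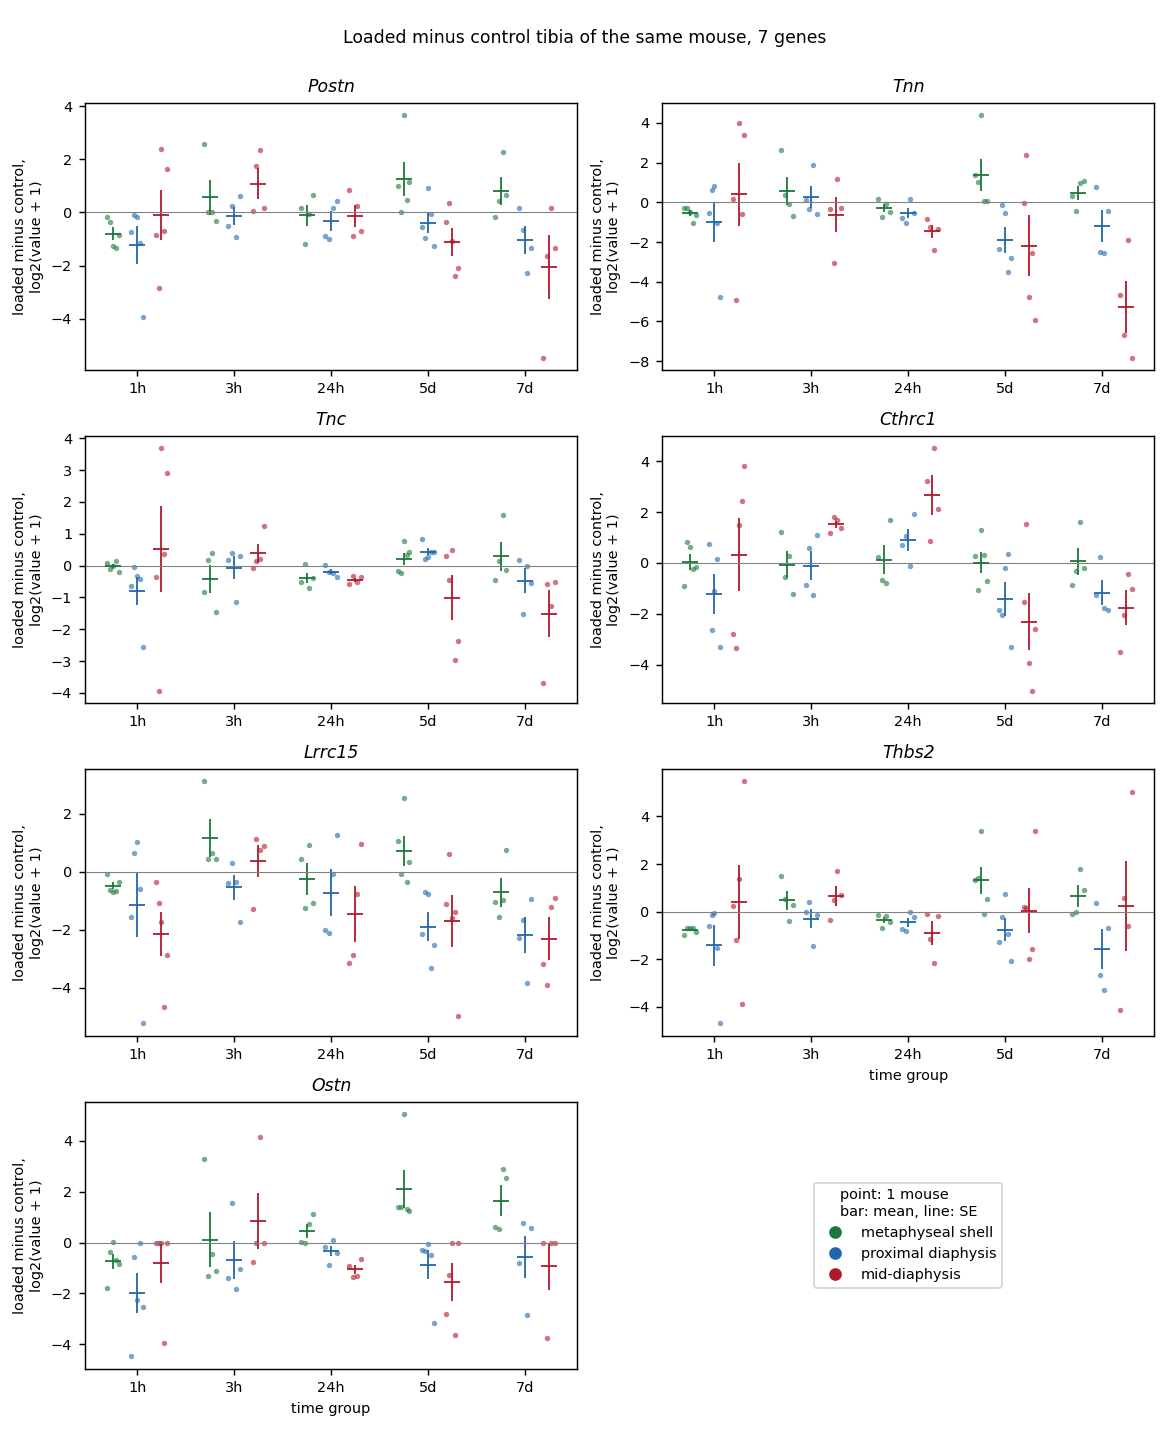
Log2 difference between loaded and control limb, of the value plus 1, for the 7 genes at each time and segment, with 1 point per mouse and the mean ± SE. Means of the metaphyseal shell lie above 0 for all 7 genes at 5d in the scaling of the authors (6 of 7 with upper-quartile scaling), while most means of both diaphyseal segments at 5d and 7d lie below 0.

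Averaged over the 3 segments of each mouse, loading called 0.00766% of all genes at 1 h, 0% at 3 h, 0% at 24 h, 0% at 5d and 0.069% at 7d by limma, and no list gene was among them. At an unadjusted p under 0.05 (limma) there were 527 genes at 1 h, 1018 at 3 h, 418 at 24 h, 746 at 5d and 1545 at 7d. With no effect of loading, a share of 0.05 of the 13050 genes would be expected there. The counts at 1 h and 24 h were below that share.

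Markers of neighbouring tissue also differed between loaded and control limbs, some in the direction of the members and some in the other. The tendon list of 6 markers (Scx, Tnmd, Mkx, Thbs4, Fmod and Kera) differed at 5d by 1.77 ± 0.83 in the shell, with a summed level of 108.1 to 531 in control and 271 to 1487 in loaded limbs. It differed by -1.11 ± 0.63 in the proximal diaphysis of the same mice, with 132.1 to 771 and 43.5 to 234, and in the mid-diaphysis by -0.72 ± 0.34. At 7d it differed by 0.76 ± 0.79 in the shell. The list thus had the same signs as the median of the members in these segments at these times. In the mid-diaphysis at 1 h and 3 h the signs were opposite. The list differed there by -0.55 ± 0.86 and -0.21 ± 0.50, and the median of the members was 0.32 and 0.64. Of its 6 markers, Scx, Tnmd, Mkx and Fmod also stand in the periosteal list and Thbs4 in the matricellular one.

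The 14 skeletal muscle markers were lower in loaded limbs at 5d and 7d, by -0.76 ± 1.14 in the shell at 5d, by -3.23 ± 1.07 in the proximal diaphysis at 5d and by -3.06 ± 0.78 in the shell at 7d. Ostn, which muscle also makes, was higher in the shell at both of these times. The 8 osteoblast markers were lower in the loaded shell in 5 of 5 mice at 5d, by -0.54 ± 0.14, and in 4 of 4 at 7d, by -0.56 ± 0.19. The 7 mesothelial markers differed by 2.81 ± 1.51 in the mid-diaphysis at 5d, and without the 4 libraries high in Msln the median over the members in that segment was -0.71 in place of -1.55. The part of these tissues in the member differences was not tested.

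Other genes of the same matrix were described from lists that do not contain the members. The lists too were chosen with earlier results of these data known, in the same libraries. Their calls below are therefore not independent support. Of 18 periosteal and fibroblast genes tested, 14 had a higher mean in the loaded metaphyseal shell at 5d (median 0.62) and 2 in the proximal diaphysis (median -0.61). Of 19 other matricellular genes 14 were higher in the metaphyseal shell (median 0.27) and 7 in the proximal diaphysis (median -0.19). Of 18 matrix scaffold genes, which hold the fibrillar collagens, 10 and 3 were higher (medians 0.22 and -0.70). Of 17 receptor genes, integrins and natriuretic peptide and Wnt receptors, 12 and 10 were higher, and of 16 regulators 7 and 7.

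When loaded shell and mid-diaphysis were compared, 6 of the 18 periosteal genes were higher in the shell and 0 lower, against the 8.11% of all genes called. Fmod, the collagen-binding proteoglycan fibromodulin of tendon and periosteum, was at 309 ± 248 and 40.2 ± 40.9, higher by 3.44 ± 0.45 in 21 of 22 mice (limma, adjusted p = 6.99e-05). Aspn, its relative asporin, was at 137 ± 171 and 40.8 ± 68.3, higher by 2.62 ± 0.60 (limma, adjusted p = 0.00735). Gli1, a target of hedgehog signalling that marks skeletal progenitors, and the tendon gene Tnmd were higher by 1.46 ± 0.31 and 1.58 ± 0.40. Among the 19 matricellular genes 5 were higher and 1 lower, with Comp, the cartilage thrombospondin, higher by 2.99 ± 0.46 in 21 of 22 mice (limma, adjusted p = 2.70e-04).

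The scaffold list had 2 of 18 genes higher in that comparison, among them Col6a3 by 1.59 ± 0.44. The receptor list had 3 of 17, among them the integrin chains Itga9, a partner in tenascin binding, by 1.54 ± 0.31 and Itgb3, a periostin-binding chain that osteoclasts and platelets also carry, by 1.52 ± 0.33. The regulator list had 1 of 16 higher and 0 lower. The main collagen gene Col1a1 differed by 0.59 ± 0.30 (limma, adjusted p = 0.215), Npr3, the clearance receptor that osteocrin binds, by -0.62 ± 0.39 (limma, adjusted p = 0.332) and Tgfbi, a relative of periostin, by 0.30 ± 0.23 (limma, adjusted p = 0.438).

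Against the loaded proximal diaphysis, the shell had 0 genes called in all 5 lists. Between the loaded proximal and mid-diaphysis 3 periosteal genes (Aspn by 2.70 ± 0.49, Fmod by 2.50 ± 0.42 and Tnmd by 1.78 ± 0.34) and the receptor gene Itga9 (1.33 ± 0.30) were higher, and the other lists had 0 called.

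In control limbs 7 of 18 periosteal genes were lower in the shell than in the proximal diaphysis and 0 higher, against 3.62% of all genes called. Aspn was at 79.5 ± 56.6 and 261 ± 279, a difference of -1.54 ± 0.29 that was lower in 21 of 22 mice (limma, adjusted p = 0.00638). Ogn, the proteoglycan osteoglycin, differed by -1.10 ± 0.18, Scx, a transcription factor of tendon cells, by -0.82 ± 0.23 and the proteoglycan Dcn by -0.71 ± 0.17. Of the matricellular list 2 were higher and 5 lower, with Thbs4 at -1.89 ± 0.45, Smoc2 at -1.06 ± 0.21 and Comp at 1.57 ± 0.42. Of the scaffold list 1 was higher and 3 lower, with Col3a1, a collagen of soft fibrous tissue, at -1.04 ± 0.21. Receptors gave 1 higher and 1 lower, and regulators 0 higher and 2 lower.

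Between the control shell and mid-diaphysis, where 4.98% of all genes were called, 4 matricellular, 2 scaffold, 3 receptor, 1 regulator and 1 periosteal gene were higher and 0 were lower in the 5 lists. Fmod was the periosteal gene, at 204 ± 91.3 and 64.9 ± 64.2, higher by 2.20 ± 0.36 in 21 of 22 mice (limma, adjusted p = 0.00107). Between the control proximal and mid-diaphysis 0.0153% of all genes and 0 list genes were called by limma. Across the 5 times in control limbs, where 21.4% of all genes were called, so were 4 of 19 matricellular, 8 of 18 scaffold, 5 of 17 receptor, 3 of 16 regulator and 6 of 18 periosteal genes, with Col1a1 (limma F test, adjusted p = 0.00291) and Lum (limma F test, adjusted p = 0.00185) among them.

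The genes most like each member over the 66 differences between loaded and control limbs were found by Pearson r among the other kept genes with a mean of at least 20, which were 7960 for Ostn and 7959 for each other member. Postn was most like Lum (0.82), Antxr1 (0.80) and Gja1 (0.76), and Tnn most like Postn (0.69), Sspn (0.68) and Lum (0.67). Tnc was most like Ibsp (0.86), Fap (0.84) and Nrp2 (0.84), and Cthrc1 most like Omd (0.81), Pcsk5 (0.80) and Col5a2 (0.78). Thbs2 was most like Col12a1 (0.69), Leprel2 (0.67) and Lpar1 (0.65). Lrrc15 and Ostn shared Aspn (0.63 and 0.68) and Dkk3 (0.63 and 0.58) among their nearest genes, and the third was Slc44a1 (0.56) for Lrrc15 and Fmod (0.60) for Ostn.

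Among the members themselves, r of the differences ran from 0.15 between Tnc and Lrrc15 to 0.69 between Postn and Tnn. Over the 66 control libraries r of the log2 levels ran from 0.09 between Tnc and Lrrc15 to 0.81 between Postn and Ostn. The points of both share mice, library depth and the tissue mix of a library, so they are not independent.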

How the data were processed

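Cortical bone of 6 limb segments from each of 22 mice was sequenced as 3′ mRNA. Per the submitters' processing notes, FastQC, STAR, DESeq2 and the build mm10 were used; the counting tool, strand setting and annotation are not given in the sources used here. The table the authors deposited holds 23412 gene rows of signal, that is normalized counts. Its header gives the animal of each library, which paired limbs and segments; mice deviated together only weakly (median r = 0.0524, over 0.1 in 8 of 22 mice). Values that were whole multiples of a library's smallest value, within 0.02 of a read, gave the reads for edgeR 4.0.16.

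Values were taken to log2 after 1 was added, and a gene was kept if its value reached 10 in 4 or more libraries (13050 genes). limma 3.58.1 (R 4.3.3, with variance trend) was fitted to 1 difference per mouse, or to 1 control mean per mouse for times. Tests were two-sided with Benjamini-Hochberg adjustment at 0.05, and p-values measure the spread between mice. Python 3.11.15 and pandas 2.3.3 made the tables. Members and lists were chosen with earlier results of these data known. All 7 members are named, with the 3 genes most like each by r, and from each list up to 4 called genes with the widest difference, plus Col1a1, Sparc, Tgfbi, Npr3, Comp, Thbs1 and Runx2. The method was also run on simulated counts, drawn separately for each library with no effect of mouse or tissue mix. That run cannot speak to the spread between mice in these data. Alternatives changed the pseudocount, filter, scaling, pairing, model, muscle covariate and libraries; leaving out 7 libraries was added after the data were seen.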

Additional observations from a re-analysis of the deposited data

Results flagged for a closer look

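Among the sets of differences between loaded and control limbs (7 genes in each of 15 combinations of time and segment), 11 had 1 mouse far from the others. A mouse counted as far where its gap to the nearest other mouse, divided by the whole range of the set, passed the 95% critical value of Dixon's test, which chance passes in about 1 in 20 sets of normally distributed values. Postn in the proximal diaphysis at 1 h was at -3.93 in mouse 5 (others -1.16 to -0.10), and Tnc there was at -2.55 in the same mouse (others -0.65 to -0.03). In that loaded library Col1a1 took 1.03% of the values. In the shell at 3 h mouse 1 stood apart for Postn, at 2.57 (others -0.32 to 0.02), and for Lrrc15, at 3.13 (others 0.44 to 0.63). Tnc in the proximal diaphysis at 3 h was at -1.15 in mouse 3 (others 0.16 to 0.39), whose control library had 7929 genes detected. Lrrc15 in the mid-diaphysis at 3 h was at -1.30 in mouse 1 (others 0.76 to 1.14).

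Ostn gave 5 of the 11. It was at 5.06 in mouse 3 in the shell at 5d (others 1.26 to 1.42) and at -3.17 in mouse 5 in the proximal diaphysis at 5d (others -0.51 to -0.07). In the mid-diaphysis it was at -3.97 in mouse 4 at 1 h (others 0), at 4.14 in mouse 3 at 3 h (others -0.76 to 0) and at -3.74 in mouse 2 at 7d (others 0), where most libraries held no Ostn read, so that these 3 sets are mostly zeros and the rate of 1 in 20 does not apply to them.

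In 8 pairs of groups every mouse of one had the loaded limb higher and every mouse of the other had it lower, and the difference between the groups was not tested. Many pairs were searched, and the share of such pairs over all genes was not computed. The genes were also chosen on these differences, so nothing is read from the count. In the shell, 1 h minus 5d was -2.06 for Postn (-0.79 against 1.26) and -1.93 for Tnn (-0.54 against 1.38), and 1 h minus 3 h was -1.65 for Lrrc15 (-0.49 against 1.16). In the proximal diaphysis, 1 h minus 5d was -1.22 for Tnc (-0.80 against 0.43). In the mid-diaphysis, Cthrc1 at 3 h minus 7d was 3.27 (1.52 against -1.76), and at 24 h minus 7d it was 4.44 (2.68 against -1.76). Within the 5d mice, shell minus proximal diaphysis was 3.26 for Tnn (1.38 against -1.87) and 2.97 for Ostn (2.10 against -0.87).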

How the results depend on the processing

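Of 321 member values in the tested comparisons under an alternative, 291 kept their direction and side of the threshold, 12 became called, 11 lost a call and 7 changed sign. Cthrc1 between loaded shell and mid-diaphysis (0.12) was at -0.11 with a pseudocount of 5, -0.14 and -0.051 by edgeR with the scaling of the authors and with TMM, and -0.14 without the 4 libraries high in Msln or without 7 libraries. Between loaded proximal and mid-diaphysis it was at -0.21 and -0.15 by edgeR. With 1 mouse left out, Cthrc1 ranged from -0.17 to 0.36 for shell against mid-diaphysis, from -0.29 to 0.0078 for shell against proximal and from -0.047 to 0.48 for proximal against mid-diaphysis, and Tnc from -0.044 to 0.12 for shell against proximal. The causes were not tested. Cthrc1 was called across times in every alternative.

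Counts of called genes are limma unless named. Average loading called 1 gene at 1 h, 0 at 3 h, 24 h and 5d, and 9 at 7d. A pseudocount of 0.5 gave 0 at 1 h and 14 at 7d, one of 5 gave 2 at 7d, and no filter gave 0 and 23. A filter at a mean of 50 gave 0, 1, 2 and 3 at 1 h, 24 h, 5d and 7d. A single fit of all libraries with a mouse block gave 2, 3, 6 and 26 at these times. edgeR gave 2, 2, 18 and 137 with the scaling of the authors, and 2, 2, 17 and 142 with TMM. At 7d, upper-quartile scaling gave 2, the muscle covariate 1, leaving out the 4 libraries 14 and leaving out 7 libraries 4.

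Control shell against mid-diaphysis called 650 genes, and 382 at a mean of 50, 1116 in the single fit and 2171 with upper-quartile scaling. Control shell against proximal called 472, with 715 unfiltered, 165 in the single fit, 903 and 968 by edgeR, 886 with a pseudocount of 5, 896 with upper-quartile scaling, 983 with the muscle covariate and 964 without 7 libraries. Upper-quartile scaling split these 808 higher and 88 lower, against 296 and 176. Control proximal against mid-diaphysis called 2, with 1 (pseudocount 0.5, muscle covariate, either set of libraries left out), 267 (single fit), 22 and 23 (edgeR), 10 (pseudocount 5) and 6 (upper quartile).

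Loaded shell against mid-diaphysis called 1058, with 305 at a mean of 50, 2327 in the single fit, 3006 with upper-quartile scaling, 402 with the muscle covariate and 704 without the 4 or the 7 libraries; edgeR split its calls 645 higher to 249 lower, against 983 to 75. Loaded shell against proximal called 8, with 144 unfiltered, 278 at a mean of 50, 28 in the single fit, 443 (269 higher, 174 lower) and 519 by edgeR, 65 with a pseudocount of 5 and 388 with upper-quartile scaling. Loaded proximal against mid-diaphysis called 122, with 13 at a mean of 50, 742 in the single fit, 196 by edgeR with TMM, 405 with upper-quartile scaling, 72 with the muscle covariate and 14 without the 4 or the 7 libraries. Control limbs across times called 2798, 1820 at a mean of 50 and 4520 by edgeR with the scaling of the authors. Upper-quartile scaling moved the median difference of all genes from 0.19 to 0.42 for loaded shell against mid-diaphysis and from 0.16 to 0.32 for loaded proximal against mid-diaphysis.

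Without the replicate block (mice not paired), counts were 247 for control shell against proximal, 16 for control proximal against mid-diaphysis and 31 for loaded shell against proximal, and Thbs2 became called between loaded proximal and mid-diaphysis; no other member call changed. With each mouse left out, counts ranged from 0 to 2 at 1 h, 0 to 1 at 3 h and 0 to 1.2e+02 at 7d, from 443 to 921, 209 to 1004 and 0 to 4 in the control comparisons, from 791 to 1339, 0 to 205 and 63 to 154 in the loaded ones, and from 2135 to 2866 across times. The 37 member differences above 0 were 34 to 40 then. Members with a higher mean in the loaded shell numbered 6 to 7 at 5d and 4 to 6 at 7d. Without 7 libraries, 0 of 7 were higher in the proximal and 0 of 7 in the mid-diaphysis at 7d. Ostn was at 0 in 11 control and 14 loaded libraries of the mid-diaphysis, and the part of library depth in this was not tested.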
